A study of Homo sapiens with 9 samples.

Results

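The 34 genes described here are autosomal genes of the germline and of meiosis, taken from a fixed list of names, out of 19970 protein-coding genes in the RefSeq table for GRCh38. All 34 names were found in that table. A locus was the gene with 5 kb on both sides, and the regions listed in it were counted list by list. The assay was ATAC-seq, applied to SK-N-MC, an established cell line of Ewing sarcoma, a tumour driven by a fusion of EWSR1 with an ETS factor. In ATAC-seq the Tn5 transposase cuts and tags DNA that is not packed into nucleosomes, so that listed regions mark accessible chromatin. Each of the 9 samples carried a short hairpin RNA that doxycycline switches on, and all of them, the control included, received 100 ng/ml doxycycline for 48 h. The control hairpin was shScramble, labelled wildtype. The other groups were labelled CHD4 knockdown and carried shCHD4#1 (hairpin 1) or shCHD4#2 (hairpin 2). CHD4 is the ATPase of NuRD, a complex that slides nucleosomes and removes histone acetyl groups. The labels give 3 biological replicates per group, and 100000 SK-N-MC cells mixed with 100 Drosophila S2 cells per sample. The labels do not say whether the hairpin cells were clones or pools.

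The question is whether chromatin at these genes is accessible in more places when CHD4 is silenced. The data analysed were 3 lists of regions, 1 per group, with 85775 regions for shScramble, 122869 for hairpin 1 and 83241 for hairpin 2. Each list is filed under replicate 1 of its group and was treated as the combined list of the group, by inference from its name. A single list per group leaves no replicate spread, so no difference was tested, and counts are set beside the same counts over all protein-coding genes. The lists hold no reads, so the depth is unknown, and the lists differ in length (hairpin 1 has 1.43 times as many regions as shScramble, hairpin 2 has 0.97 times as many). A listed region also cannot tell a site that is open in few cells from a site that is weakly open in many. At 4 loci typical of Ewing sarcoma, NKX2-2 had 8, 5 and 4 regions (shScramble, hairpin 1, hairpin 2), NR0B1 3, 3 and 4, CCND1 4, 5 and 6, and CD99 1 in each list. A gene end was covered at all 4 in every list, which is also common among all genes (64.8% or more), so this is a weak check of the cell type.

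As background, germline genes serve mainly germ cells, and most of them are silent in somatic cells. They fall into a few working groups. The piRNA pathway uses small RNAs bound to PIWI proteins to silence transposons, in granules that also hold tudor domain proteins and RNA helicases. In meiosis, cohesins with meiosis-specific subunits and axis proteins shape the chromosomes, SPO11 cuts the DNA, DMC1 and its partners repair the breaks, and the synaptonemal complex zips the paired chromosomes together. Many promoters of these genes are rich in CpG dinucleotides, and DNA methylation and repressors such as E2F6 and MGA are known to keep them shut outside the germline.

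Where 3 values follow each other below, they are in the order shScramble, hairpin 1, hairpin 2. The germline loci held 72 regions in the shScramble list, 102 in the hairpin 1 list and 63 in the hairpin 2 list. Relative to shScramble this is a ratio of 1.42 for hairpin 1 and 0.875 for hairpin 2, while the summed numbers over all protein-coding loci gave 1.36 and 0.994. The loci were sparse in regions: 100 kb of locus held on average 3.08 regions in the shScramble list, 4.37 for hairpin 1 and 2.70 for hairpin 2, against 4.57, 6.20 and 4.54 over all loci. In bases, the regions covered 109 kb, 172 kb and 86.2 kb of the 2334015 bp in these loci. Relative to shScramble this is a ratio of 1.58 for hairpin 1 and 0.793 for hairpin 2. The bases of the whole lists (very wide regions and those with a negative value left out) gave 1.41 and 0.73. Per gene, the log2 ratio of region numbers (after adding 1 to each) had a median that was 0.10 for hairpin 1 and 0 for hairpin 2, and over all genes it was 0.17 and 0. With hairpin 1, 17 of the 34 genes had more regions than with shScramble (51.2% of all genes did) and 3 had fewer (17.3% of all genes). With hairpin 2, 6 had more (30.7% of all genes) and 12 had fewer (32.9% of all genes). More with hairpin 1 and at the same time fewer with hairpin 2 were listed at 4 genes (11.8%, against 12.0% of all genes). In summed region number hairpin 1 thus lay above shScramble and hairpin 2 below it, the order of the lengths of their lists.

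**Figure D1:**
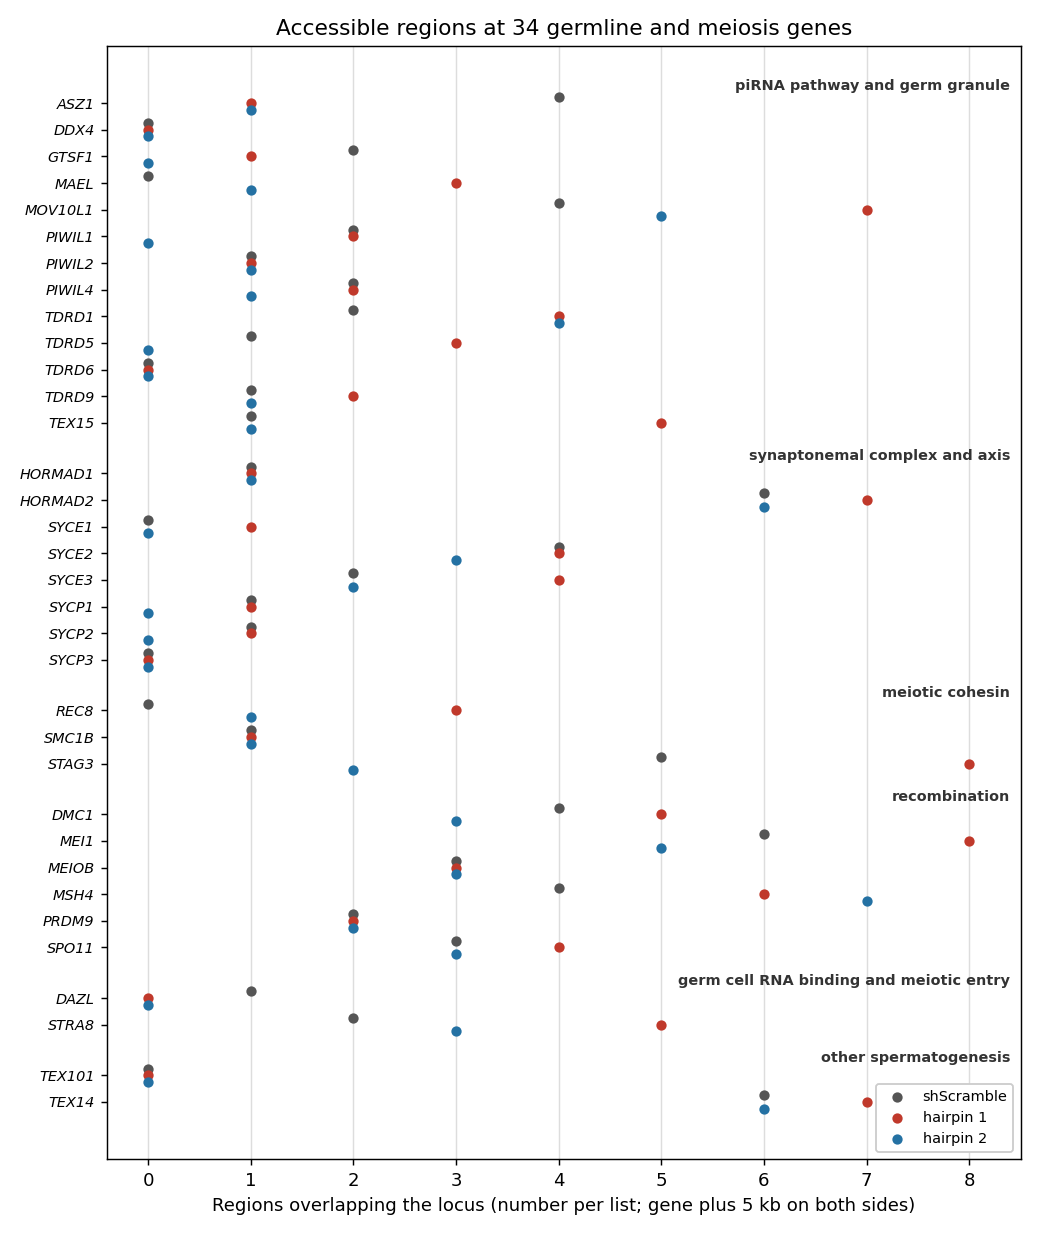
Number of listed regions (x axis) overlapping each of the 34 loci (y axis, grouped by role); each point is 1 list, grey for shScramble, red for hairpin 1 and blue for hairpin 2. Numbers run from 0 to 8, and DDX4, SYCP3, TDRD6 and TEX101 stand at 0 in all 3 lists.

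More regions with each hairpin than with shScramble were listed at 6 genes, MAEL, REC8, TDRD1, MOV10L1, STRA8 and MSH4, which is 17.6% of the germline genes against 25.2% of all genes. At TDRD1, STRA8 and MSH4 no place was listed with both hairpins and not with shScramble, so a higher number there is not a place gained with both. Fewer regions with each hairpin were listed at DAZL, ASZ1 and GTSF1, which is 8.82% against 13.0%. Both shares thus lay below those of all genes. These calls depended on weakly ranked regions. When only regions up to p of 0.05 were counted, none of the 9 genes met its rule. With only the best 20000 regions of each list MOV10L1 still had more, beside SYCE2, SMC1B and PRDM9 (11.8% against 11.0% of all genes), and the 3 genes with fewer were HORMAD2, PIWIL4 and MSH4 (8.82% against 11.3%). The number was the same in all 3 lists at 9 genes, 4 of them at 0. At 7 genes (20.6%, against 16.1% of all genes) shScramble had no region, and MAEL and REC8 were the 2 of these with a region in each hairpin list. Of all genes with no shScramble region, 19.9% had regions with both hairpins.

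The start of a gene counted as covered when a region lay within 1 kb of it, or of any of its starts where RefSeq gave more than 1. The RefSeq promoter table gave the start for 28 of the 34 genes. HORMAD1, MEIOB, PIWIL2, PIWIL4, TEX14 and TEX15 are not in it and are left out of the counts of starts and promoters. Few germline starts were covered: 8 for shScramble (28.6%), 10 for hairpin 1 (35.7%) and 12 for hairpin 2 (42.9%), against 62.9%, 71.1% and 68.2% of all genes with a start. The 8 starts covered with shScramble were covered in every list, and belong to SYCE2, SYCE3, STAG3, SMC1B, DMC1, HORMAD2, STRA8 and MSH4. Starts covered in both hairpin lists but not in that of shScramble were those of MAEL and SPO11, 7.14% of 28, and 6.91% of all genes met the same rule. The starts of MOV10L1 and PRDM9 were covered with hairpin 2 alone. Starts covered with shScramble and with neither hairpin numbered 0 of 28, and 0.892% of all genes had such a start. The other 16 starts were covered in no list.

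Asked of the 300 bases of promoter sequence alone (RefSeq's window, most of it before the start), a region overlapped them in both hairpin lists but not in that of shScramble at SPO11, SMC1B and HORMAD2. This is 10.7% of 28 genes, against 8.82% of all genes. The reverse was listed at 0 of 28, against 1.98% of all genes. The promoters of these 3 genes are shown because the lists differ on their bases, and that of MAEL because the lists differ just past it. The sequences are those of RefSeq on GRCh38.p14, read 5′ to 3′ on the strand of the gene, with each CpG in capitals. The SPO11 promoter is chr20:57329553-57329852 on the plus strand, with 26 CpG. The SMC1B promoter is chr22:45413550-45413849 on the minus strand, with 34 CpG. The HORMAD2 promoter is chr22:30080214-30080513 on the plus strand, with 28 CpG. The MAEL promoter is chr1:166975332-166975631 on the plus strand, with 60 CpG.
SPO11: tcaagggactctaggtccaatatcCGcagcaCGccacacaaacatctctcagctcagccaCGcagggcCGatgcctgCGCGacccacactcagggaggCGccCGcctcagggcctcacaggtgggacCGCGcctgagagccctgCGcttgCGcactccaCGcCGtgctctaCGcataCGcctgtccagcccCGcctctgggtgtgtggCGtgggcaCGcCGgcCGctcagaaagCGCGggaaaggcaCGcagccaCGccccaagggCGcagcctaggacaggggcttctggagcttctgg
SMC1B: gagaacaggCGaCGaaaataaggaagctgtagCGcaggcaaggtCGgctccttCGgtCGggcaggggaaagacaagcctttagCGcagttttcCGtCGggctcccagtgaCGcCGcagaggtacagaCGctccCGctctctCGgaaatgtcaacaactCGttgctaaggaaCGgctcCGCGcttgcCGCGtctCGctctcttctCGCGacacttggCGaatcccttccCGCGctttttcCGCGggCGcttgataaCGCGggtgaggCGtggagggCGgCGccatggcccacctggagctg
HORMAD2: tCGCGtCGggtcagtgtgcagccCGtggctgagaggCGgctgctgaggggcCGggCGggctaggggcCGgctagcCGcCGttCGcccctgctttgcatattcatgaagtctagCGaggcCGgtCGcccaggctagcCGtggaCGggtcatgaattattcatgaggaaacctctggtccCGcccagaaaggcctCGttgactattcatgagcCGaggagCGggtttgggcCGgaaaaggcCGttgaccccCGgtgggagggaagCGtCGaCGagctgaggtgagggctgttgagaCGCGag
MAEL: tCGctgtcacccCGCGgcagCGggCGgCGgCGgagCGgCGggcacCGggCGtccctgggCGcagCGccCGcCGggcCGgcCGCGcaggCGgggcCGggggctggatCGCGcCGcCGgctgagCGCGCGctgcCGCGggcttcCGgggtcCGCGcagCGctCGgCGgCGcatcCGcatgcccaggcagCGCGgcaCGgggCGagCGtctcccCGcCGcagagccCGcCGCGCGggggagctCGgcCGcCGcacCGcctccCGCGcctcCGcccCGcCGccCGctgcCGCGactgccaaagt

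SPO11 (chr20:57329803-57343993) encodes the topoisomerase-like enzyme that makes the DNA breaks of meiosis. In its locus there were 3 regions for shScramble, 4 for hairpin 1 and 3 for hairpin 2. With hairpin 1 a region of 650 bp (chr20:57329731-57330380) spanned the start, with an authors' p of 0.748. With hairpin 2 a region of 1050 bp (chr20:57329751-57330800) did so, with p of 0.917. The nearest shScramble region lay 2413 bp away from the start. The same promoter was therefore listed with both hairpins and not with shScramble, by regions that ranked in the weaker part of their lists (61.7% and 90.6% from the top). No end of another gene lies within 1 kb of this start. The p-values and the ranks are those of the authors' lists, and the lists differ in length, so they place a region within its own list only.

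SMC1B (chr22:45344063-45413599) encodes a cohesin subunit of meiosis. It had 1 region in each list, but at different places. The regions with the hairpins overlapped the promoter, chr22:45413491-45414470 with hairpin 1 (980 bp, p of 0.0751) and chr22:45413561-45414300 with hairpin 2 (740 bp, p of 0.0445). The shScramble region, chr22:45410771-45412990 (2220 bp, p of 0.493), lay inside the gene and stopped 609 bp short of the start. These hairpin regions were the best ranked of all gained regions at the germline genes, at 14.7% and 12.5% from the top. RIBC2 has an end within 1 kb of this start, and which of these genes the region belongs to was not tested.

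HORMAD2 (chr22:30077732-30207456), an axis protein that watches over pairing, had 6, 7 and 6 regions. Its start in the promoter table is at 30080464, inside the span of the gene. Upstream of this start all 3 lists held a region, which ended 804 bp, 624 bp and 994 bp from it. A second region spanned the start with hairpin 1 (530 bp, p of 0.687) and with hairpin 2 (1000 bp, p of 0.922), and shScramble had none there. Further inside the gene, another region was listed with both hairpins only, of 760 bp with hairpin 1 and 1610 bp with hairpin 2. The best region of the locus lay near the far end of the gene in all 3 lists, with a p of 0.150 for shScramble, 0.00183 for hairpin 1 and 0.0205 for hairpin 2.

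MAEL (chr1:166975582-167022214) encodes maelstrom, which acts in transposon silencing by piRNAs. No region was listed at its locus with shScramble, 3 were with hairpin 1 and 1 with hairpin 2. Downstream of the start, hairpin 1 had a region of 1360 bp (chr1:166975751-166977110, p of 0.842) and hairpin 2 one of 540 bp (chr1:166975771-166976310, p of 0.488). They began 169 bp and 189 bp past the start, beyond the promoter bases shown above. The nearest shScramble region was 49002 bp away. ILDR2 has an end within 1 kb of this region, and its part in the result was not tested.

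**Figure D2:**
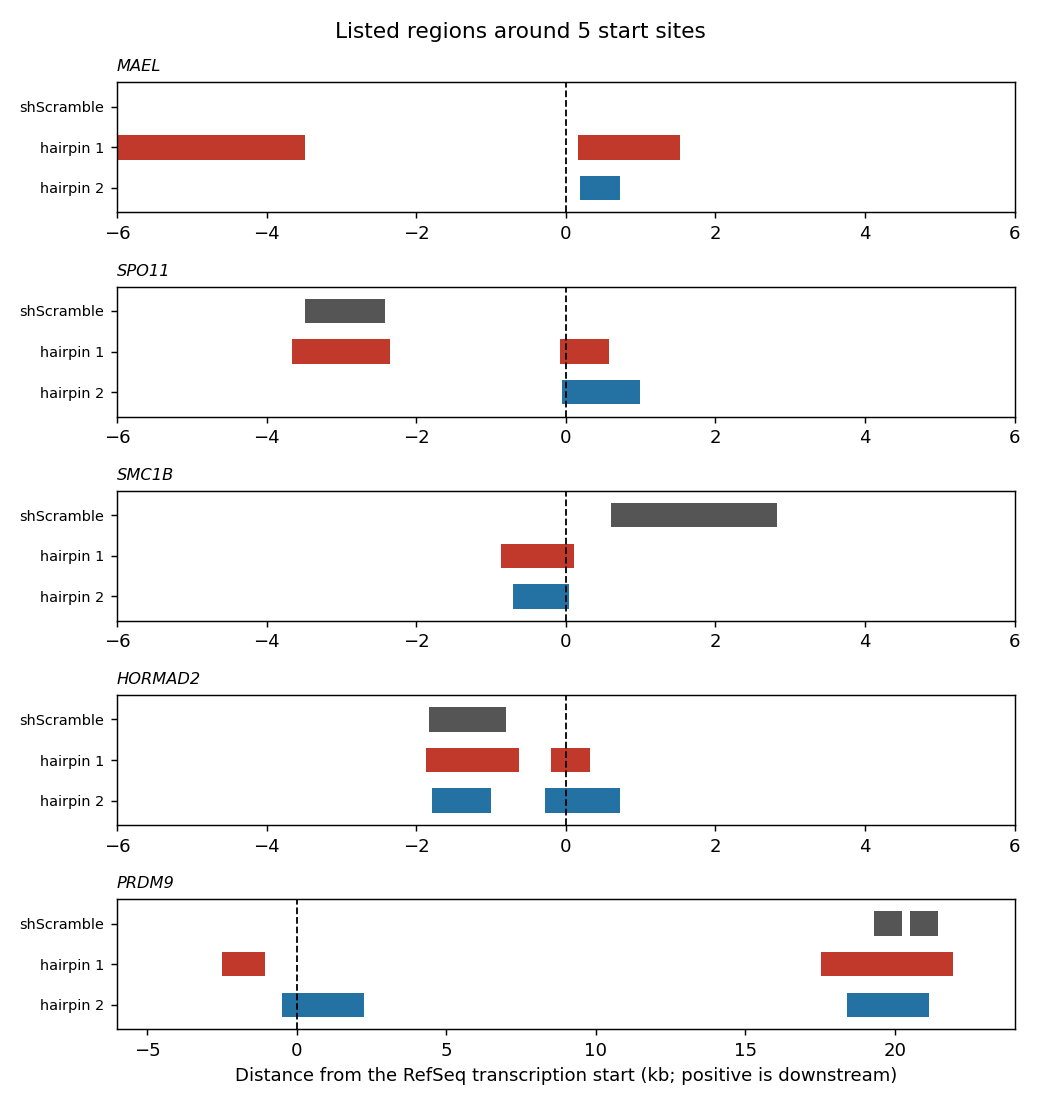
Listed regions around 5 starts, as distance from the start in kb (x axis, positive is downstream; the PRDM9 axis is longer), with 1 row of bars per list. At SPO11, SMC1B and HORMAD2 a bar of each hairpin touches the dashed start and no grey shScramble bar does, and at MAEL the hairpin bars begin just past it.

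Either end of the gene, start or finish, had a region within 1 kb at 15 genes for shScramble (44.1%) and at 18 for each hairpin (52.9%). Over all genes these shares were 64.8%, 73.0% and 68.4%. An end was covered in both hairpin lists but not in that of shScramble at MAEL, REC8, SPO11 and MEIOB, 11.8% of the 34 against 6.65% of all genes. The reverse held for MEI1 and PIWIL4, 5.88% against 1.43%. At each of these 2 genes the difference was narrow, since every list held a region close to that end and only the shScramble region began within 1 kb. With a window of 2 kb neither gene met the rule. None of the 4 ends gained met its rule among stronger regions. With the best 20000 regions the genes were SMC1B and PRDM9 instead (5.88% against 6.16% of all genes), and with a p of at most 0.05 PRDM9 alone (2.94% against 5.72%).

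Among the 13 genes of the piRNA pathway and germ granules, the lists held 20 regions for shScramble, 31 for hairpin 1 and 15 for hairpin 2. Of their 10 starts, 0 were covered for shScramble, 1 for hairpin 1 and 2 for hairpin 2. MOV10L1 (chr22:50090006-50161687), a helicase needed to make piRNA precursors usable, had 4 regions for shScramble, 7 for hairpin 1 and 5 for hairpin 2. At 2 places in this gene a region was listed with both hairpins only. The first began 1965 bp past the start with hairpin 1 and 535 bp past it with hairpin 2, and the authors' p was 0.855 and 0.922. TDRD1 (chr10:114174874-114232666), a tudor domain protein that binds PIWI proteins, had 2, 4 and 4 regions. The best of them lay at the end of CCDC186 in every list, with p of 0.00269, 0.00166 and 0.00417. There, 2 of the 4 regions of each hairpin adjoined with no gap, beside a single shScramble region.

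Of the other piRNA genes, ASZ1, GTSF1, PIWIL1, TDRD5 and PIWIL4 stood below shScramble with a hairpin or with both, and the rest did not. ASZ1 (chr7:117363222-117427493), a germ granule protein, had 4 regions with shScramble and 1 with each hairpin. The 2 hairpins listed different places there, and a region of 2460 bp with p of 0.879 was in the shScramble list alone. GTSF1 (chr12:54455957-54473602), a partner of PIWI proteins, had 2, 1 and 0 regions. Its hairpin 1 region had an authors' p of 0.0431 and the overlapping shScramble region one of 0.219, each within its own list. PIWIL1, a PIWI protein, had 2, 2 and 0, and TDRD5, a tudor protein, had 1, 3 and 0. PIWIL4 had 2, 2 and 1. TEX15, which acts with PIWI proteins on transposon methylation, had 1, 5 and 1, and 4 of the 5 were in the hairpin 1 list alone. Some of these 4 adjoined each other with no gap, such as chr8:30908171-30908960 and chr8:30908961-30909970. PIWIL2 had 1 in each list, and TDRD9 had 1, 2 and 1. The helicase gene DDX4, a standard germ cell marker, had 0 in each list, as did TDRD6.

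The 8 genes of the synaptonemal complex and the chromosome axis had 15, 19 and 12 regions. Of these, 0 had more regions with both hairpins (25.2% of all genes did) and 0 had fewer with both (13.0% of all genes). SYCP1, which forms the transverse filaments, had 1, 1 and 0 regions, none of them near the start. The axis genes SYCP2 and SYCP3 had 1, 1 and 0 and 0 in each list. The central element genes differed from these: SYCE2 had 4, 4 and 3 regions and SYCE3 had 2, 4 and 2, with the start covered in every list. SYCE1, of the same element, had 0, 1 and 0. The region at the SYCE3 start ranked high in all lists, with p of 0.00830, 0.00949 and 0.0118. Inside SYCE2 (chr19:12898786-12919293) an overlapping region had p of 0.501 for shScramble, 0.000852 for hairpin 1 and 0.00149 for hairpin 2. It was 2010 bp, 3060 bp and 3110 bp wide. HORMAD1, an axis protein, had 1 region in each list, among the best ranked of the set (0.211%, 0.327% and 0.605% from the top). In every list most of this region lay outside HORMAD1, past its end at the lower coordinate. GOLPH3L has an end within 1 kb, and which gene the region belongs to was not tested.

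The 3 meiotic cohesin genes had 6, 12 and 4 regions. STAG3 (chr7:100177724-100219334), whose protein takes the place of the somatic STAG subunits, had 5, 8 and 2. Its start was covered in every list by a well-ranked region, with p of 0.000971, 0.000242 and 0.000138, and GPC2 has an end within 1 kb. In the body of the gene, 2 shScramble regions and 6 hairpin 1 regions had no hairpin 2 region over them. Several of the 6 adjoined each other with no gap. Partial copies of STAG3 lie elsewhere on its chromosome, so reads of this gene may have been placed among them. REC8 (chr14:24172080-24180923), the cohesin subunit that holds sister chromatids together through meiosis, had 0, 3 and 1 regions. The region shared by the hairpins lay at the 3′ end of the gene (chr14:24180671-24185330 and chr14:24180931-24183070), with p of 0.823 and 0.837. It lies within 1 kb of an end of IPO4, and when regions at the ends of other genes were left out, REC8 and MAEL no longer had more regions with both hairpins. The REC8 start was covered in no list.

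The 6 recombination genes had 22, 28 and 23 regions. Of their 5 starts, 2, 3 and 4 were covered (40.0%, 60.0% and 80.0%, against 62.9%, 71.1% and 68.2% of all genes). The start of PRDM9 was covered with hairpin 2 alone, but the nearest hairpin 1 region lay 1049 bp away, just outside the window of 1 kb. The nearest shScramble region lay 19282 bp from this start. PRDM9 (chr5:23507155-23528093), the histone methyltransferase that places recombination hotspots, had 2 regions in each list, which differed in width and in rank within their lists. Near its 3′ end shScramble had 2 regions of 950 bp each, with p of 0.297 and 0.688. Hairpin 1 had a region of 4440 bp there with p of 8.56e-07, at 0.161% from the top of its list, and hairpin 2 had a region of 2760 bp with p of 0.000592, at 2.07%. The bases covered in the locus were 1900 bp for shScramble, 5870 bp for hairpin 1 and 5500 bp for hairpin 2. PRDM7 on chromosome 16 is a near-identical copy of PRDM9 and had 2, 3 and 4 regions, so reads of these genes may have been split or shared. The start of PRDM9 lay in a hairpin 2 region of 2740 bp with p of 0.704.

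MSH4 (chr1:75796882-75913242), which stabilises crossover intermediates, had 4 regions for shScramble, 6 for hairpin 1 and 7 for hairpin 2. Its start was covered in each list, with p of 0.870, 0.912 and 0.910, beside an end of RABGGTB. Among the best 20000 regions of each list the order was the other way, with fewer at MSH4 with both hairpins. MEIOB, which binds single-stranded DNA, had 3 regions in each list, and the end at the higher coordinate (1872164) was covered with hairpin 1 (p of 0.910) and hairpin 2 (p of 0.908) only. MEI1 (chr22:41699503-41799454), needed for break formation, had 6, 8 and 5. The recombinase gene DMC1 (chr22:38509147-38570183) had 4, 5 and 3, and the region over its start had p of 0.951, 0.577 and 0.172 in the same order. Each of these p-values places a region in its own list only. With shScramble another region lay 928 bp from this start, with p of 0.439.

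DAZL (chr3:16586792-16605423), an RNA-binding protein of early germ cells, had a single region of 760 bp with shScramble (p of 0.638) and 0 with either hairpin. STRA8 (chr7:135231915-135258663), which starts meiosis on a retinoic acid signal, had 2, 5 and 3 regions. Of its 2 RefSeq starts, the inner one (135233838) was covered in every list. The one at the end of the gene (135231915) was covered with shScramble and hairpin 2 only. The covered bases of STRA8 did not follow the region number: 4300 bp, 11120 bp and 2130 bp. TEX14, a protein of the bridges between germ cells, had 6, 7 and 6 regions and the best-ranked region of the whole set with shScramble (0.117%). TEX101, a surface protein of germ cells, had 0 in each list.

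Only regions that shared a base were merged over the 3 lists, so that regions adjoining with no gap stayed apart. Merged in this way, the germline loci held 116 regions. Of these, 36 were in all 3 lists (31.0%, against 36.3% over all loci), 12 were in both hairpin lists only (10.3% against 10.1%) and 11 in the shScramble list only (9.48% against 9.96%). Another 35 were in the hairpin 1 list only (30.2% against 26.6%) and 4 in the hairpin 2 list only (3.45% against 5.68%). The 12 gained regions lay at 9 genes and the 11 lost regions at 10 genes. Most had a high authors' p. It ran for the lost regions from 0.493 to 0.879, and for the gained regions from 0.0751 to 0.949 with hairpin 1 and from 0.0445 to 0.922 with hairpin 2. The best ranked of the gained regions were those of SMC1B, described above, and TEX14 with hairpin 1 (16.7% from the top). Regions with an authors' p of at most 0.05 were 12 for shScramble (16.7%), 17 for hairpin 1 (16.7%) and 13 for hairpin 2 (20.6%), against 12.6%, 11.9% and 13.1% of the whole lists. The whole lists also hold regions outside gene loci, so they are not a like background. Counted over regions of p at most 0.05 alone, SYCE2, HORMAD2 and PRDM9 had more with both hairpins (8.82%, against 10.4% of all genes) and MEI1 had fewer (2.94% against 5.96%).

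The germline promoters were rich in CpG whether or not the start was covered. The 28 genes with a start had 36 promoters in RefSeq, with a median of 26 CpG in 300 bases, against 21 over 22131 promoters of all genes. Promoters whose start was covered in no list had a median of 6 CpG over all genes, and 26 over the 22 germline ones. Where the start was covered in all 3 lists the medians were 25 and 28. With a minimum of 20 CpG, chosen after the data were seen, 14 of 25 germline promoters (56.0%) were covered in no list, against 12.6% of all promoters with as many CpG. With a minimum of 15 CpG these shares were 60.0% and 13.6%, and with 25 CpG they were 60.0% and 12.5%. The set therefore holds many CpG-rich starts at which no group has a listed region. DNA methylation was not measured in these files. As an example, the promoters of STAG3 (chr7:100177474-100177773, plus strand, 20 CpG), covered in all 3 lists, and SYCP3 (chr12:101739413-101739712, minus strand, 24 CpG), covered in none, are shown with each CpG in capitals.
STAG3: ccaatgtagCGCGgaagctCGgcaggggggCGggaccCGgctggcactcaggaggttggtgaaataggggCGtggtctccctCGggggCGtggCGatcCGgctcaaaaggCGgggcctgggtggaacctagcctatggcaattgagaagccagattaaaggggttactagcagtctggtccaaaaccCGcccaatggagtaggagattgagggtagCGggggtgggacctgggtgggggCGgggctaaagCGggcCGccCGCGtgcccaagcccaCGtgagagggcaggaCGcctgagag
SYCP3: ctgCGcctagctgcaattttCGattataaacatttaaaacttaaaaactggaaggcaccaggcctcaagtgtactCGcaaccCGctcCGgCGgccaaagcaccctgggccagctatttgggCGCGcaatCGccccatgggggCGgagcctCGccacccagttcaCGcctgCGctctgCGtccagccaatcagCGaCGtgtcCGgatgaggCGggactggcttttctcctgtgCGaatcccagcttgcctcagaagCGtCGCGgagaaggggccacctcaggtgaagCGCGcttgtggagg

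**Figure D3:**
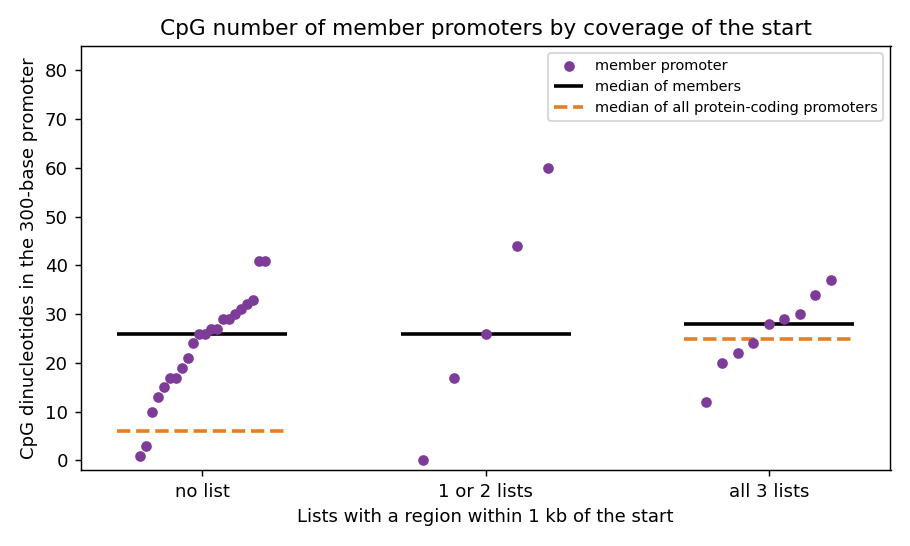
CpG number in the 300-base promoter (y axis) for the 36 germline promoters, grouped by how many lists have a region within 1 kb of the start (x axis); each point is 1 promoter, black lines are medians of the germline promoters and dashed orange lines are medians of all promoters. Where no list covers the start, the germline median is 26 and that of all promoters is 6.

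Both strands of these 300 bases were searched for 2 motifs, the E-box CACGTG and the letters TCCCGC, which are found in sites of E2F6. Neither motif contains the other. The E-box was in 8 of the 36 germline promoters (22.2%, against 8.34% of all promoters), and TCCCGC was in 22 (61.1% against 33.5%). Among promoters with at least 20 CpG the shares were 28.0% against 10.5% and 72.0% against 50.9%. TCCCGC was in all 6 promoters printed above, and of these STAG3 alone also held the E-box. By coverage, TCCCGC was in 12 of the 22 germline promoters whose start was in no list (54.5%, against 18.5% of all such promoters), in 66.7% of those in all 3 lists (against 41.4%) and in 80.0% of the 5 in 1 or 2 lists. A match of letters is a description of the sequence and shows no binding.

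A list of 61 other germline genes was counted in the same way. Of these, 16 had more regions with both hairpins (26.2%, against 25.2% of all genes) and 5 had fewer (8.20% against 13.0%). A start was covered in both hairpin lists but not in that of shScramble at 6 of 53 (11.3%, against 6.91% of all genes), and promoter bases were overlapped in this way at 7 of 53 (13.2%, against 8.82%). No shScramble region was listed at 20 of them, and 8 of the 20 had regions with both hairpins (40.0% against 19.9%). PRM2 and TNP2 are among the 8 and their loci overlap, so a region may be counted at both. Other genes also lie in the loci of PRM2 and IHO1. Ranks of these regions and counts over stronger regions alone are not given for this list. IHO1, a partner in break formation, had 0, 5 and 1 regions. MND1, which helps DMC1, had 1, 7 and 4. PRM2, a protamine that packs sperm DNA, had 0, 2 and 2, and MEIKIN, which guides kinetochores in meiosis, had 0, 2 and 1. At the lower end, CCNB1IP1 and EXD1 had 4, 2 and 2 each.

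For 19 somatic genes of the same families and processes the lists held 81, 94 and 67 regions. Of their 13 starts in RefSeq, 12, 13 and 13 were covered (92.3%, 100.0% and 100.0%, against 62.9%, 71.1% and 68.2% of all genes). More regions with both hairpins were listed at 1 of the 19 (5.26% against 25.2%) and fewer at 1 (5.26% against 13.0%). MRE11, a nuclease of somatic and meiotic break repair, had 1, 4 and 4 regions, and DDX5, a helicase, had 2, 5 and 2. STAG1 had 6, 10 and 6 and MSH6 had 1, 2 and 1. The lowest were BRCA2 with 4, 5 and 1 and SMC3 with 4, 3 and 2. Marker loci of somatic testis cells were also counted. AMH and SOX9, of Sertoli cells, had 0, 3 and 3 and 0, 2 and 2 regions. STAR had 2, 5 and 2, CYP17A1 2, 3 and 2, INHA 4, 4 and 3, and INSL3 0 in each list.

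**Figure D4:**
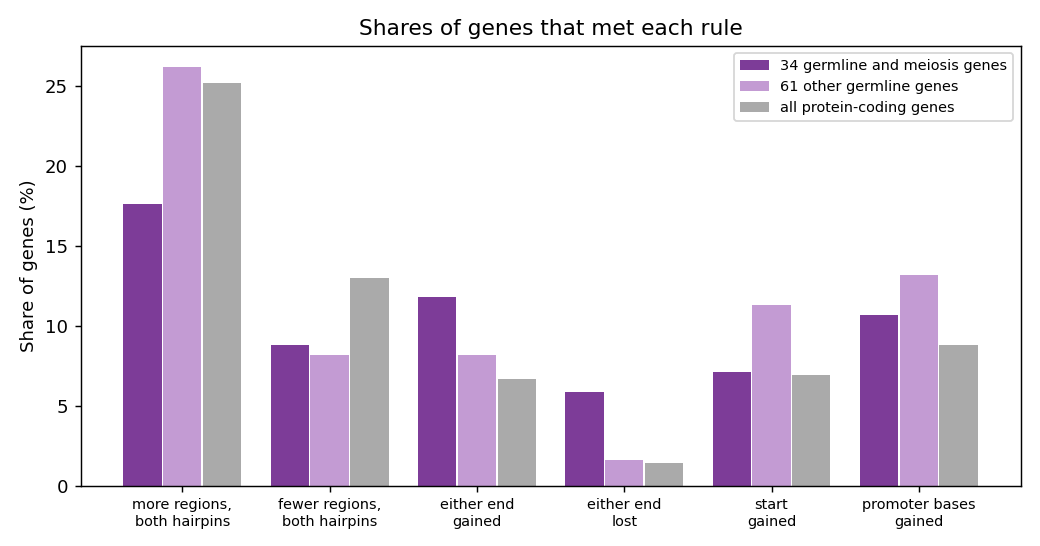
Share of genes in percent (y axis) that met each of 6 rules (x axis), for the 34 germline and meiosis genes, 61 other germline genes and all 19970 protein-coding genes; the bars on starts and promoters count the 28, 53 and 15811 genes with a RefSeq start. The bars of the 34 genes stand below those of all genes for region number and above them for a gene end gained (11.8% against 6.65%) or lost (5.88% against 1.43%).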

How the data were processed

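ATAC-seq was made from 9 samples of SK-N-MC cells, 3 per group, and grouped by their labels. The submitters' processing notes name BWA, deepTools 3.2.1, FastQC 0.11.7, SAMtools 1.9 and Trimmomatic 0.36 as the authors' tools, and the builds dm6 and GRCh38. Not given in the sources used here are the peak caller, any shift of read ends for Tn5 and any use of the Drosophila spike-in, and each could change how many regions a list holds. The deposited lists carry the name of ChIP-R, which merges replicate peak lists. Each deposited region has a score, a second value with no stated unit (also treated as a score), and, from the authors, a q-value and a p-value that sets the order of each list. Since no read numbers are in the lists, depth per sample and its precision are unknown.

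Regions on chromosomes 1 to 22 and X were used. A region counted for a locus when it shared at least 1 bp with the gene plus 5000 bp on both sides, and for a gene end within 1000 bp of it. Regions of a list that adjoined with no gap were counted 1 by 1. Starts and promoters are those of the RefSeq table for GRCh38.p14, and exons were not used here. Regions found with each hairpin but not shScramble are called gained, and those of shScramble alone lost. Log2 ratios had 1 added to both numbers. Counts were set beside all 19970 protein-coding genes, or the 15811 with a start, and no test was made. Python 3.11.15, pandas 2.3.3 and numpy 2.4.6 were used, and overlaps, covered bases and patterns were tested on simulated data. The members and gene lists were chosen with earlier results of these data known. Genes described are members whose coverage differed between lists, with more or fewer regions with both hairpins, or with gained or lost regions, and from each other list up to 4 genes with the largest and 2 with the lowest mean log2 ratio (ties by alphabet). The count of promoter bases, the CpG minimum, the joining of regions and the covered bases were added after the data were seen. Alternatives were other locus sizes, end windows, overlaps, pseudocounts and region filters.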

Additional observations from a re-analysis of the deposited data

Results flagged for a closer look

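At 4 genes the hairpins lay on opposite sides of shScramble in region number, with hairpin 1 above and hairpin 2 below. This is 11.8% of the 34 genes, and 12.0% of all protein-coding genes showed the same pattern. The difference between the hairpins was 6 regions at STAG3 (5 with shScramble, 8 with hairpin 1 and 2 with hairpin 2), 3 at MEI1 (6, 8 and 5), 3 at TDRD5 (1, 3 and 0) and 2 at DMC1 (4, 5 and 3). This difference was not tested, since each hairpin has 1 list. The hairpin 1 list is the longest of the 3 and the hairpin 2 list the shortest, and the part of list length in these differences was not tested.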

How the results depend on the processing

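No paired analysis was possible because the files hold 1 list per group and no values per replicate, and for the same reason no replicate was left out in turn. Of the counts over the members under other settings, 31 stayed within 1.5 times the reported value and 17 did not. With loci of 10 kb or 50 kb on both sides, the median log2 ratio with hairpin 1 was 0.42 in each case (0.25 and 0.36 over all genes), and both hairpins had more regions at 10 and 14 genes (29.4% and 41.2%, against 27.4% and 35.3% of all genes). This median was 0 under 4 settings: the best 20000 regions, p at most 0.05, joined regions, and no regions at ends of other genes. With regions of p at most 0.05, 3 genes had more (8.82%, against 10.4% of all genes) and 1 fewer (2.94% against 5.96%). An end was gained at 1 (2.94% against 5.72%) and lost at 0 (against 2.02%), and a start was gained at 0 (against 5.77%). None of the genes called with all regions met the same rule. By covered bases (chosen after seeing the data), 7 genes had more with both hairpins and 7 had fewer, and shares over all genes are not given here. With the best 20000 regions of each list, an end was gained at 2 genes (5.88%, against 6.16% of all genes). A start was gained at 1 (3.57% against 6.19%) and lost at 1 (3.57% against 2.44%). Of the 4 reported ends gained, 0 met the rule again, and of the 6 genes with more regions, 1 did. Counting the start only, ends gained were 2 (7.14%, against 6.91% of all genes) and ends lost 0 (against 0.892%). With a window of 500 bp an end was lost at 1 gene, STRA8 (2.94%, against 1.6% of all genes), which was not among the reported ends lost. With 2 kb an end was lost at 0 (against 1.14%). Starts gained were 4 and 4 with these windows (14.3% each, against 7.56% and 6.2% of all genes). The mean log2 ratio over both hairpins changed sign with the best 20000 regions at ASZ1 (0.50, from -1.32), GTSF1 (0.50, from -1.09) and MSH4 (-1.0, from 0.58), and with p at most 0.05 at GTSF1 (0.50). Counting only overlaps of 50% of the shorter region, 12 regions were gained and 14 lost. The cause of these shifts was not tested.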
